A study of Mus musculus with 18 samples.

Results

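Nr4a1, Nr4a2, Nr4a3, Egr1, Egr2 and Egr3 are immediate early transcription factor genes that T cells switch on after their antigen receptor (TCR) is engaged. They were followed here across 6 groups of mouse regulatory T cells (Tregs), on 18 Affymetrix Mouse Gene 1.0 ST arrays, as 6 of 19752 genes with an annotated probe set. Each gene was read from 1 probe set that carries its symbol alone: 10427035 for Nr4a1, 10482772 for Nr4a2, 10504838 for Nr4a3, 10454782 for Egr1, 10363735 for Egr2 and 10416251 for Egr3. The rule that names the genes uses symbols and no measured value, but it was set with earlier results of these data known.

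Every group held 3 arrays, and all mice are labelled with the NOD genetic background. The 2 thymus groups were CD4+ GFP+ cells with GFP marking Foxp3 expression, from males of 4 days of age (called perinate thymus here) or of 5 weeks (called adult thymus). The 4 spleen groups came from females of 60 days that carried Foxp3-eGFP-Cre-ERT2, a Cre recombinase active only with tamoxifen and only where Foxp3 is expressed, together with the Rosa26-YFP reporter. Tamoxifen was given in 4 injections, from day 0 to day 10 of life or from day 35 to day 45. GFP+YFP+ cells had therefore expressed Foxp3 during the injections, and are called perinate-tagged or adult-tagged. GFP+YFP- cells are the untagged bulk Tregs of mice given the same perinatal or adult tamoxifen. That bulk is not a single age class, since it holds Tregs made later as well as earlier ones that escaped recombination. Adult-tagged cells need not be a single age class either, since any Treg present from day 35 to day 45 could be tagged, whenever it was made. Chimeras made with fetal liver and bone marrow, a further arm of the study, were not analysed here. Whether the 3 arrays of a group stand for separate mice is not stated in the labels. The p-values therefore cover the spread between these samples alone, which may be technical.

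The Nr4a genes encode orphan nuclear receptors, Nur77 (Nr4a1), Nurr1 (Nr4a2) and Nor1 (Nr4a3). They have no natural ligand that is known to be required, and their amount in a T cell follows recent TCR signal. Nur77 reporter mice are used for that reason to read TCR signal strength, in thymocytes under selection and in peripheral T cells. The Egr genes encode zinc finger factors induced through the Ras and ERK kinases, with Egr2 and Egr3 also known as brakes on T cell activation that induce E3 ligases and diacylglycerol kinases in anergic cells.

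The sequences just upstream of 4 of the genes are shown because the Nr4a genes and Egr2 can respond to TCR signals through elements close to their start sites. RefSeq windows on build GRCm38.p6 were used for Nr4a1, Nr4a2, Nr4a3 and Egr2, and each run below is the 250 bases before an annotated start, 5′ to 3′ on the gene's own strand. Egr1 was left out and is not reported here, and no window was found for Egr3, so Egr2 alone stands for its family. Capitals mark the core of the cAMP response element, TGACG on either strand (CGTCA when read from the other strand), and, in Egr2, the CArG box bound by serum response factor. No 2 of these matches overlap in the printed windows.
Nr4a1: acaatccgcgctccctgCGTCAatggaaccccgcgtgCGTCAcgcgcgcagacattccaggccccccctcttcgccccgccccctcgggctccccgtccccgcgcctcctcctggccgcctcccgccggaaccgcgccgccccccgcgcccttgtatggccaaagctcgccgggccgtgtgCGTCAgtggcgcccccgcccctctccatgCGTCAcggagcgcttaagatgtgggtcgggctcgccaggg
Nr4a2: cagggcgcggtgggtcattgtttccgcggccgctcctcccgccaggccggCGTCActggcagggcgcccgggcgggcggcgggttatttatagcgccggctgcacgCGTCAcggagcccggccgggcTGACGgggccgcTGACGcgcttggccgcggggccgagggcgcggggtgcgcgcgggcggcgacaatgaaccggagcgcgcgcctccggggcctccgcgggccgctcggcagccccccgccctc
Nr4a3: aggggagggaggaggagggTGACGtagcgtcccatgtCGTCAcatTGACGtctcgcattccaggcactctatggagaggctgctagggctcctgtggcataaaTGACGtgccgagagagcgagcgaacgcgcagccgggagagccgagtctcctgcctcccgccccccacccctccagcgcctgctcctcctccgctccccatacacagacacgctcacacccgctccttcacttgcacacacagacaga
Egr2: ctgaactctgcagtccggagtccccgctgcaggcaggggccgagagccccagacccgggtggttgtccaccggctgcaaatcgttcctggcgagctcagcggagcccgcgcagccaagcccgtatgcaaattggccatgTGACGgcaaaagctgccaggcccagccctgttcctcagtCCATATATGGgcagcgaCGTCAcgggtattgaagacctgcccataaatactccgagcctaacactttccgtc
The windows are chr15:101266596-101266845 (plus strand) for Nr4a1, chr2:57124004-57124253 (minus strand) for Nr4a2, chr4:48045055-48045304 (plus strand) for Nr4a3 and chr10:67537619-67537868 (plus strand) for Egr2. Nr4a1, Nr4a2 and Nr4a3 each held 4 matches to TGACG. Of all 32851 RefSeq windows of this length, 17.8% held at least 1 match and 0.137% (45 windows) held at least 4. The Egr2 window held 2 matches and 1 CArG box, which began 72 bases before the start. A CArG box was present in 1.47% of all windows, and both motifs together in 0.17%. Of the 5 windows listed for Egr2, 3 overlapping ones held both motifs, and the first of them is printed. The Egr binding motif GCGNGGGCG, searched on both strands, occurred once upstream of Nr4a1 and once upstream of Nr4a2, and in 4.7% of all windows. A match is a stretch of letters and was not tested for binding in these cells.

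**Figure D1:**
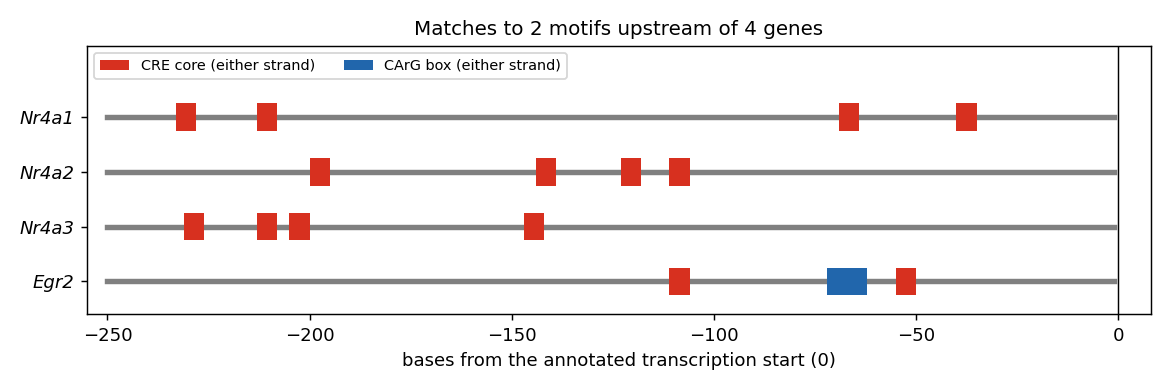
Positions of the motif matches in the 250 bases upstream of Nr4a1, Nr4a2, Nr4a3 and Egr2, with distance from the annotated start in bases on the x axis and 1 gene per row. Nr4a1, Nr4a2 and Nr4a3 hold 4 cAMP response element (CRE) cores each, and Egr2 holds 2 with 1 CArG box between them.

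The cell labels were checked before the members were read. Foxp3, the defining factor of Tregs, averaged 12.37, 12.19, 11.95, 12.25, 12.19 and 12.08 on the log2 scale in perinate thymus, adult thymus, perinate-tagged, adult-tagged, perinate-treated untagged and adult-treated untagged cells. Of 10 Treg identity genes, 1 was higher and 2 lower in perinate-tagged than in adult-tagged cells by limma, where 19.5% of all genes were called. Itgae was higher (log2 difference 1.74, adjusted p = 0.00845). Gpr83 (-1.01, adjusted p = 0.0127) and Il2ra (-0.39, adjusted p = 0.0416) were lower, and Foxp3 did not pass (-0.31, adjusted p = 0.0877). The CD8 gene Cd8a stood at 9.75 ± 0.06 in perinate thymus and 10.36 ± 0.04 in adult thymus (SD, n = 3 each). In the spleen groups its means were 6.52 to 6.83. Rag1, 1 of 10 listed markers of immature (double-positive) thymocytes, had group means of 5.89 to 6.46. Other markers of that list went higher in thymus, as given below. Probe sets with no target in the sample (3 Y-linked genes on 11 female arrays, Xist on 6 male arrays) read 3.95 to 6.30, and every member read above that range on every array. Replicate 2 of the perinate-tagged group is labelled female but had Eif2s3y at 9.79 and Xist at 8.38, whereas the other 11 spleen arrays had Eif2s3y at 3.95 to 4.90 and Xist at 11.86 to 12.41. The members' differences between groups that use it, and the counts of pathway gene lists in tagged cells by age, are therefore also given without it. Counts of cell marker lists are given with it alone. The interquartile range of an array's log2 values, a measure of how compressed its signals are, was 3.00 to 3.06 in perinate thymus, 2.08 to 2.82 in adult thymus, 2.94 to 3.12 in perinate-tagged cells and 2.49 to 2.88 in adult-tagged cells. The arrays' number, not a read depth, limits precision.

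The 6 genes split by family in how thymic Tregs differed from splenic ones. All 3 Nr4a genes were higher in thymic Tregs than in untagged splenic Tregs, by 2.80- to 4.64-fold, and none of the Egr genes passed the test. Nr4a3 ranged over 10.11 to 10.96 (median 10.72) on the 6 thymus arrays and 8.11 to 8.99 (median 8.24) on the 6 untagged spleen arrays, a log2 difference of 2.21 ± 0.16 (SE; adjusted p = 1.22e-08, limma). Nr4a2 ranged over 9.47 to 10.43 (median 10.01) in thymus and 7.55 to 8.35 (median 8.06) in untagged spleen, a difference of 1.97 ± 0.13 (adjusted p = 6.96e-09). The groups did not overlap for either gene. Nr4a1 ranged over 9.80 to 11.75 (median 11.35) in thymus and 9.04 to 9.99 (median 9.64) in untagged spleen, with adult thymus replicate 2 inside the spleen range. Its difference was 1.48 ± 0.16 (adjusted p = 1.79e-06). In this comparison 30.5% of the 10889 genes tested passed an adjusted p of 0.05 and 16.2% passed as higher, and 4.26% were higher with no overlap. By size of the rise, Nr4a3 ranked 9, Nr4a2 ranked 16 and Nr4a1 ranked 34 among all genes tested.

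The Egr family differed little between the same groups. Egr1, usually the first of the family to be induced, differed by 0.19 ± 0.08 (adjusted p = 0.0854) between thymus and untagged spleen. Egr3 differed by 0.24 ± 0.11 (adjusted p = 0.0975) and Egr2 by -0.16 ± 0.09 (adjusted p = 0.172). Leaving out 1 array could end that: without untagged adult replicate 3, Egr1 (0.23, adjusted p = 0.0435) and Egr3 (0.32, adjusted p = 0.0223) passed as higher in thymus, and without adult thymus replicate 2 they also passed (0.22, adjusted p = 0.0396, and 0.32, adjusted p = 0.0164). Tissue, sex, age and sorter differ together between these groups and cannot be told apart, and fewer cells of a kind cannot be told apart from less RNA per cell. Of 7 CD8 T and NK cell markers, 5 were tested and 3 were higher and 1 lower in thymus. Their summed linear signal was 1868 to 2667 in thymus and 719 to 897 in untagged spleen, with the NK cell genes Ncr1 and Klrb1c at the level of absent genes in every group. Of 10 double-positive thymocyte markers, which include Cd8a and Cd8b1 as the former list does, 5 were tested. In thymus 3 of them were higher and 0 lower, where 16.2% of all genes were called higher. Their summed linear signal was 3423 to 4097 in thymus and 1817 to 2344 in untagged spleen. The part of either kind of cell in the result was not tested.

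**Figure D2:**
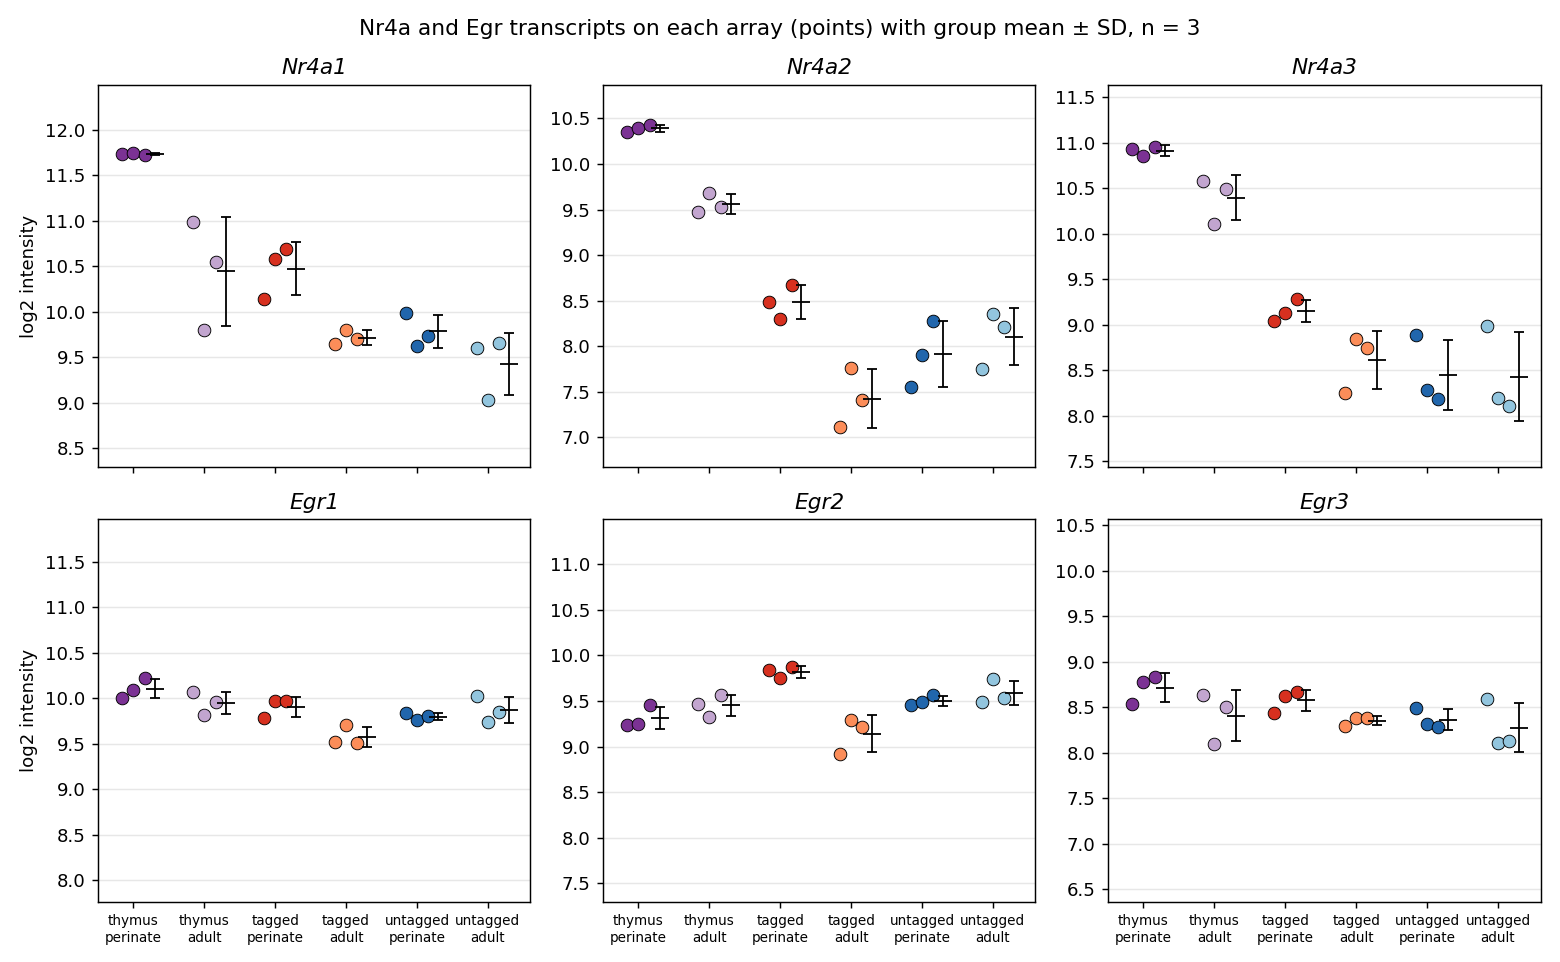
Log2 level of each gene on every array (points) by group, in 6 panels with their own ranges of equal height, with bars for the group mean ± SD of 3 arrays. Nr4a2 and Nr4a3 separate thymus from spleen, while Egr1, Egr2 and Egr3 stay within about the same range in both tissues and Egr2 is highest in perinate-tagged spleen cells.

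The order of the group means differed between the genes. Nr4a1 ran from perinate thymus (11.74) through perinate-tagged (10.48), adult thymus (10.45), perinate-treated untagged (9.78) and adult-tagged (9.72) to adult-treated untagged cells (9.43), and only its first 2 groups did not overlap as neighbours. Nr4a2 ran from perinate thymus (10.39) through adult thymus (9.56), perinate-tagged (8.49), adult-treated untagged (8.10) and perinate-treated untagged (7.91) to adult-tagged cells (7.42), with no overlap at its first 2 steps. Nr4a3 ran from perinate thymus (10.92) through adult thymus (10.40), perinate-tagged (9.15), adult-tagged (8.61) and perinate-treated untagged (8.45) to adult-treated untagged cells (8.43), with no overlap at its first 3 steps. Nr4a2 was thus the only Nr4a gene whose lowest mean was in adult-tagged cells, a place it shared with Egr1 and Egr2. Egr2 alone had its highest mean outside the thymus, at 9.82 in perinate-tagged cells, followed by adult-treated untagged (9.59), perinate-treated untagged (9.50), adult thymus (9.45), perinate thymus (9.31) and adult-tagged cells (9.14), and only the first step had no overlap. Egr1 spanned 10.11 in perinate thymus to 9.58 in adult-tagged cells, with no overlap only at its last step, and Egr3 spanned 8.71 in perinate thymus to 8.27 in adult-treated untagged cells, with overlap at every step.

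Within the thymus, the Nr4a genes were higher in perinate than in adult Tregs, and the Egr genes were not called. Nr4a1 read 11.73, 11.75 and 11.72 in perinate thymus, against 10.98, 9.80 and 10.55 in adult thymus. Nr4a2 read 10.35, 10.40 and 10.43 in perinate thymus, against 9.47, 9.68 and 9.53 in adult thymus. Nr4a3 read 10.94, 10.85 and 10.96 in perinate thymus, against 10.58, 10.11 and 10.49 in adult thymus. Every perinate array was above every adult array for all 3, and the perinate arrays lay closer together than the adult ones. The log2 differences were 1.29 ± 0.26 for Nr4a1 (2.44-fold, adjusted p = 0.0131), 0.83 ± 0.11 for Nr4a2 (1.78-fold, adjusted p = 0.00255) and 0.52 ± 0.15 for Nr4a3 (1.43-fold, adjusted p = 0.036). These 3 of 6 stand against 24.3% of 10650 genes called in either direction and 18.5% called higher, with 36.9% of genes higher without overlap, and against a median difference of 0.17 over all genes tested. That median moved by -0.15 under quantile normalization and by 0.14 under median centring.

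Egr1 read 10.01, 10.09 and 10.22 in perinate thymus, against 10.06, 9.82 and 9.96 in adult thymus, so the groups overlapped. Its difference of 0.16 ± 0.12 (adjusted p = 0.325) was close to the median of all genes and turned to -0.04 under quantile normalization. Egr2 read 9.24, 9.25 and 9.45 in perinate thymus, against 9.47, 9.33 and 9.56 in adult thymus, a difference of -0.14 ± 0.12 (adjusted p = 0.392). Egr3 read 8.53, 8.77 and 8.83 in perinate thymus, against 8.63, 8.09 and 8.50 in adult thymus, a difference of 0.31 ± 0.17 (adjusted p = 0.186). Adult thymus replicate 2, the array with the narrowest signal range (2.08), had the lowest thymus reading of Nr4a1, Nr4a3, Egr1 and Egr3. Without it, the Nr4a1 difference was 0.97 (adjusted p = 0.000184). The Nr4a3 call was lost with quantile normalization (0.33, adjusted p = 0.0531), no filter (adjusted p = 0.0552), array weights (0.38, adjusted p = 0.0967) and all 18 arrays in the fit (adjusted p = 0.075). The Nr4a1 call was lost without any 1 perinate thymus array (1.28 to 1.30, adjusted p 0.0509 to 0.0646), the Nr4a3 call also without any 1 of those or without adult thymus replicate 3 (0.50 to 0.57, adjusted p 0.0783 to 0.127), and with the signal range as a covariate Nr4a1 was at 0.55 (adjusted p = 0.0131) and Nr4a3 at 0.20 (adjusted p = 0.236).

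In the spleen, Tregs tagged around birth read higher than Tregs tagged in adult life for all 6 genes with no overlap, and all were sorted at 60 days of age. The time from tamoxifen to sorting was therefore longer for perinate-tagged cells. Nr4a2 read 8.49, 8.30 and 8.67 in perinate-tagged cells, against 7.11, 7.75 and 7.41 in adult-tagged cells. Nr4a1 read 10.15, 10.58 and 10.70 in perinate-tagged cells, against 9.65, 9.81 and 9.70 in adult-tagged cells. Egr2 read 9.84, 9.75 and 9.88 in perinate-tagged cells, against 8.91, 9.30 and 9.21 in adult-tagged cells. The gap between the closest arrays of the groups was widest for Nr4a2 and Egr2. Nr4a2 differed by 1.06 ± 0.21 (2.09-fold, adjusted p = 0.00284), Nr4a1 by 0.76 ± 0.18 (1.69-fold, adjusted p = 0.00916) and Egr2 by 0.68 ± 0.13 (1.60-fold, adjusted p = 0.0019). These 3 of 6 stand against 19.5% of 10350 genes called, 16% called higher, and a median difference of 0.12 over all genes. All 6 members were higher without overlap, as were 33.2% of all genes.

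The remaining genes had smaller differences that did not pass. Nr4a3 read 9.04, 9.13 and 9.28 in perinate-tagged cells, against 8.25, 8.85 and 8.74 in adult-tagged cells, a difference of 0.54 ± 0.24 (adjusted p = 0.118). Egr1 read 9.78, 9.97 and 9.97 in perinate-tagged cells, against 9.52, 9.71 and 9.51 in adult-tagged cells, a difference of 0.33 ± 0.12 (adjusted p = 0.0643). Egr3 read 8.44, 8.62 and 8.66 in perinate-tagged cells, against 8.30, 8.38 and 8.38 in adult-tagged cells, a difference of 0.22 ± 0.14 (adjusted p = 0.268). Without perinate-tagged replicate 2, the array at odds with its sex label, the differences were 0.92 for Nr4a1 (adjusted p = 0.00355), 1.06 for Nr4a2 (adjusted p = 0.00879) and 0.67 for Egr2 (adjusted p = 0.00674), and Nr4a3 (0.59, adjusted p = 0.133), Egr1 (0.39, adjusted p = 0.0538) and Egr3 (0.29, adjusted p = 0.201) again did not pass. Without perinate-tagged replicate 5, Nr4a1 no longer passed (0.65, adjusted p = 0.0567). With the arrays' signal range as a covariate, Nr4a1 (0.43, adjusted p = 0.337) and Nr4a2 (0.82, adjusted p = 0.151) no longer passed, and Egr2 did (0.65, adjusted p = 0.0475). Markers of other cells moved in part. Of 14 myeloid and dendritic markers 3 reached the level filter and 2 of them (Cd68 and Fcer1g) were higher in perinate-tagged cells, and the list's summed linear signal was 1200 to 1609 in perinate-tagged cells and 1135 to 1249 in adult-tagged cells. Of 9 B cell markers 1 reached it (Cd79b, higher), and their sum was 1109 to 1280 in perinate-tagged cells and 943 to 991 in adult-tagged cells, with Ms4a1 and Cd79a at the level of absent genes. The part of these cells in the result was not tested.

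In the untagged cells of the same treatment arms, no member passed. Nr4a1 read 9.99, 9.63 and 9.74 after perinatal tamoxifen, against 9.60, 9.04 and 9.65 after adult tamoxifen. Nr4a2 read 7.55, 7.91 and 8.27 after perinatal tamoxifen, against 7.75, 8.35 and 8.21 after adult tamoxifen. Egr2 read 9.45, 9.49 and 9.56 after perinatal tamoxifen, against 9.49, 9.74 and 9.53 after adult tamoxifen. The groups overlapped for all 6 genes, as they did for all but 4.81% of genes. The differences were 0.35 ± 0.18 for Nr4a1, -0.20 ± 0.21 for Nr4a2, 0.02 ± 0.24 for Nr4a3, -0.07 ± 0.12 for Egr1, -0.08 ± 0.13 for Egr2 and 0.09 ± 0.14 for Egr3, each with an adjusted p of 0.995. By limma 0% of 10350 genes passed after adjustment, while 380 genes and 0 of 6 members had an unadjusted p under 0.05. Same-numbered untagged arrays deviated together for numbers 3 and 5 (r = 0.63 and 0.47) and less so for number 4 (0.14). With the number as a block in these 2 groups alone, 49 genes and 0 members passed.

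The perinate-minus-adult difference itself was larger in tagged than in untagged cells for Nr4a2 and Egr2. The 2 differences were apart by 1.26 ± 0.29 for Nr4a2 (adjusted p = 0.022) and by 0.77 ± 0.18 for Egr2 (adjusted p = 0.022), where 4.89% of genes were called and 4.29% called higher. For Nr4a1 (0.40 ± 0.25, adjusted p = 0.414), Nr4a3 (0.52 ± 0.33, adjusted p = 0.428), Egr1 (0.40 ± 0.17, adjusted p = 0.21) and Egr3 (0.13 ± 0.20, adjusted p = 0.757) it did not pass. Without perinate-tagged replicate 2 both passed (Nr4a2 1.26, adjusted p = 0.0375, and Egr2 0.76, adjusted p = 0.0392) and the others did not (0.20 to 0.58, adjusted p 0.166 to 0.644). With the replicate number as a block, neither passed (Nr4a2 0.84, adjusted p = 0.0616, and Egr2 0.60, adjusted p = 0.151). The number is not shown to pair the tagged arrays or the untagged ones numbered 4. Both calls were also lost without adult-tagged replicate 1 (Nr4a2 1.10, adjusted p = 0.077, and Egr2 0.65, adjusted p = 0.0671) or without perinate-tagged replicate 5 (1.17, adjusted p = 0.0718, and 0.74, adjusted p = 0.0703). The Nr4a2 call was also lost without adult-tagged replicate 3 (1.25, adjusted p = 0.0548), untagged adult replicate 4 (1.14, adjusted p = 0.0533) or untagged adult replicate 5 (1.20, adjusted p = 0.0547), and with the signal range as a covariate (1.13, adjusted p = 0.0606). Among markers of other cells, Cd79b, the 1 tested B cell marker, passed in this comparison (0.77 ± 0.20, adjusted p = 0.0349). Of 3 tested myeloid and dendritic markers 0 passed. The part of these cells in the result was not tested.

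**Figure D3:**
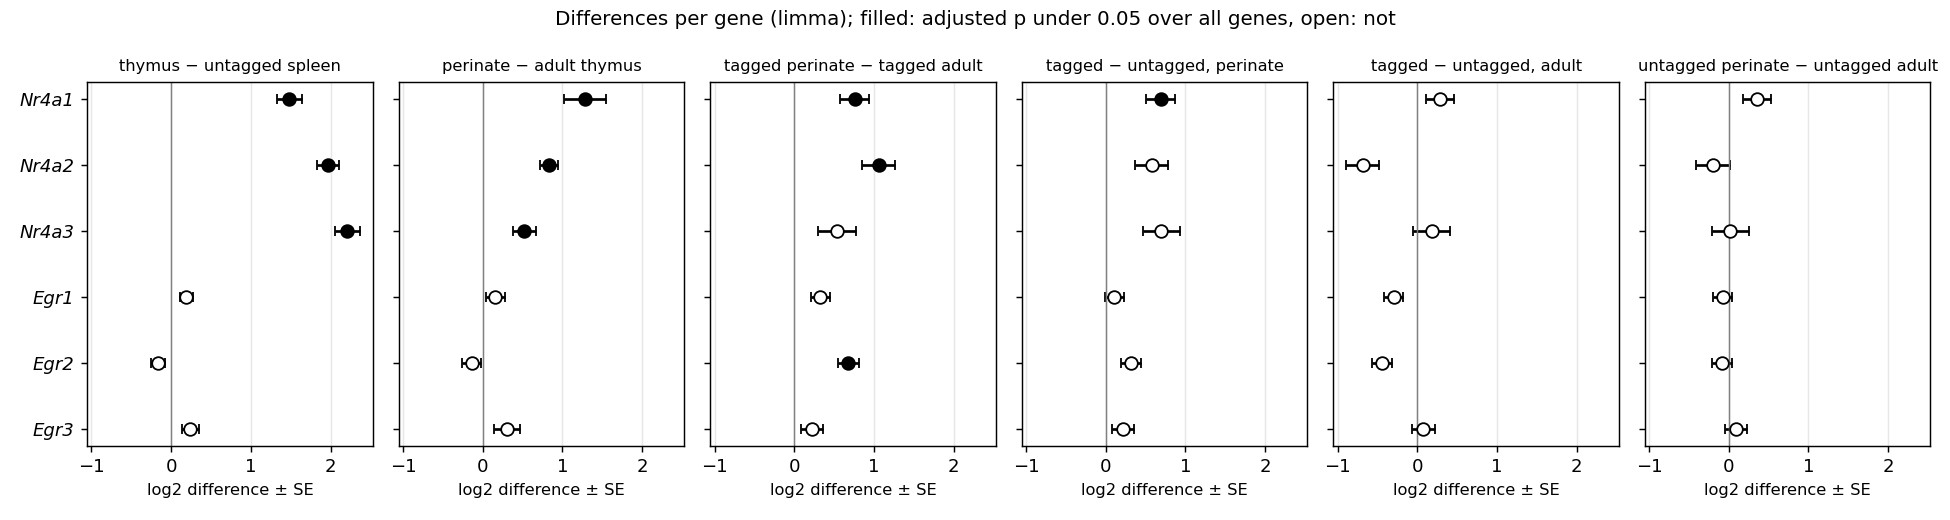
Log2 differences of the 6 genes in 6 comparisons (x axes, 1 panel each), with points for the estimate and bars for its standard error, and filled points where the adjusted p was under 0.05. The Nr4a genes are higher in thymus and in perinate thymus, and Nr4a1, Nr4a2 and Egr2 are higher in perinate-tagged than in adult-tagged spleen cells.

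Tagged cells were also set against the untagged cells of the same treatment arm. After perinatal tamoxifen, tagged cells read higher without overlap for Nr4a1, Nr4a2, Nr4a3 and Egr2, as did 19.7% of genes, and 1 of 6 members passed the test, against 7.34% of genes in either direction and 5.49% higher. That member was Nr4a1, at 0.69 ± 0.18 (1.61-fold, adjusted p = 0.0303). Nr4a3 differed by 0.70 ± 0.24 (adjusted p = 0.0911), Nr4a2 by 0.58 ± 0.21 (adjusted p = 0.112) and Egr2 by 0.32 ± 0.13 (adjusted p = 0.147). Egr1 (0.11 ± 0.12, adjusted p = 0.633) and Egr3 (0.21 ± 0.14, adjusted p = 0.393) overlapped. The Nr4a1 call was lost without perinate-tagged replicate 4 or 5, or without untagged perinate replicate 4 or 5 (0.58 to 0.67, adjusted p 0.106 to 0.146), and without untagged perinate replicate 3, Nr4a3 passed (0.92, adjusted p = 0.0236). The Nr4a1 call was also lost with no filter (adjusted p = 0.0509) and with all 18 arrays in the fit (adjusted p = 0.0754). Without perinate-tagged replicate 2, Nr4a1 passed (0.86, adjusted p = 0.0121) and the others did not (0.17 to 0.76, adjusted p 0.123 to 0.493). With all arrays, 1 of 3 tested myeloid and dendritic markers was higher in tagged cells, C1qb (1.18 ± 0.22, adjusted p = 0.00413). Fcer1g (0.68, adjusted p = 0.0709) and Cd68 (0.26, adjusted p = 0.349) did not pass. The 1 tested B cell marker, Cd79b, was higher (0.81 ± 0.14, adjusted p = 0.00286). The part of these cells in the result was not tested.

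After adult tamoxifen the tagged cells read lower than the untagged ones for 3 members, with none past the adjusted threshold. Nr4a2 differed by -0.68 ± 0.21 (adjusted p = 0.16), Egr2 by -0.45 ± 0.13 (adjusted p = 0.133) and Egr1 by -0.29 ± 0.12 (adjusted p = 0.251), and these 3 of 6 had an unadjusted p under 0.05. Egr1 and Egr2 were lower without overlap, as were 10.3% of genes. Nr4a1 (0.29 ± 0.18, adjusted p = 0.429), Nr4a3 (0.18 ± 0.24, adjusted p = 0.715) and Egr3 (0.08 ± 0.14, adjusted p = 0.804) had positive values. By limma 0.271% of genes passed in this comparison. Without untagged adult replicate 3, Nr4a2 (-0.86, adjusted p = 0.027) and Egr2 (-0.49, adjusted p = 0.0483) passed as lower in tagged cells, and 774 genes passed in place of 28.

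The age difference in thymus and the age difference in tagged spleen cells were compared directly, and Egr2 was the 1 member for which they differed. In thymus, age means the age of the mice (4 days or 5 weeks). In tagged spleen cells it means the age at tamoxifen, in mice all of 60 days, and time since tamoxifen differs with it. The Egr2 age difference was 0.68 in tagged spleen cells and -0.14 in thymus, and the 2 differences were apart by 0.82 ± 0.17 (adjusted p = 0.00667), where 6.46% of genes were called and 3.89% called higher. Leaving out any 1 array kept it at 0.71 to 0.90, past the threshold each time, and without perinate-tagged replicate 2 it was 0.81 (adjusted p = 0.0154). With the replicate number as a block, which is not shown to pair these arrays, it was 0.73 (adjusted p = 0.0519). The Nr4a genes had positive age differences in both tissues, and these were not called apart: -0.53 ± 0.32 for Nr4a1 (adjusted p = 0.353), 0.23 ± 0.27 for Nr4a2 (adjusted p = 0.674) and 0.02 ± 0.31 for Nr4a3 (adjusted p = 0.984). Egr1 (0.17 ± 0.16, adjusted p = 0.603) and Egr3 (-0.08 ± 0.21, adjusted p = 0.874) did not pass. Without that array these 5 again did not pass (-0.37 to 0.23, adjusted p 0.504 to 0.983).

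Across the 12 spleen arrays, the 2 highest correlations among the 15 pairs of members each joined an Nr4a gene to an Egr gene. Nr4a2 and Egr2 had a Pearson r of 0.94 and a Spearman rho of 0.97, and r was 0.81 once each group's mean was removed. Nr4a3 and Egr3 had r = 0.92 and rho = 0.95, and r was 0.89 with group means removed. Nr4a2 and Nr4a3, both nuclear receptors of the same family, had r = 0.20 and rho = 0.28. Other pairs were also high: r was 0.795 for Nr4a1 with Egr3, 0.76 for Nr4a1 with Nr4a3 and 0.71 for Egr1 with Egr2. With group means removed, r was 0.62, 0.51 and -0.08 for those 3 pairs, and it reached 0.79 for Egr1 with Egr3, 0.78 for Nr4a1 with Egr1 and 0.70 for Nr4a3 with Egr1. On the 11 arrays without perinate-tagged replicate 2, r was 0.93 for Nr4a2 with Egr2 and 0.94 for Nr4a3 with Egr3. These values are descriptions over arrays that share groups and tissue, and the pairs were picked after their values were seen. The untagged arrays numbered 3 made the split visible: Nr4a3 was 8.89 and 8.99 on those 2 arrays, against 8.11 to 8.28 on the other 4 untagged arrays, and Egr3 was 8.49 and 8.58 against 8.11 to 8.31. On the same 2 arrays Nr4a2 was low, at 7.55 and 7.75 against 7.91 to 8.35, and Egr2 was 9.45 and 9.49 against 9.49 to 9.74, a split too small to show after rounding. Nr4a1 and Egr1 overlapped between these arrays. Beyond the members, the mean log2 level of the TCR-induced genes was 9.36 and 9.32 on the 2 arrays, the lowest of the untagged group after perinatal and after adult tamoxifen. Treg identity genes (11.26 and 11.12) and genes linked to Nr4a factors (9.51 and 9.48) were also lowest there. Genes carrying the TCR signal (10.04 and 9.96) and Egr relatives and corepressors (8.41 and 8.38) were highest, so the deviation was not particular to TCR-induced genes.

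**Figure D4:**
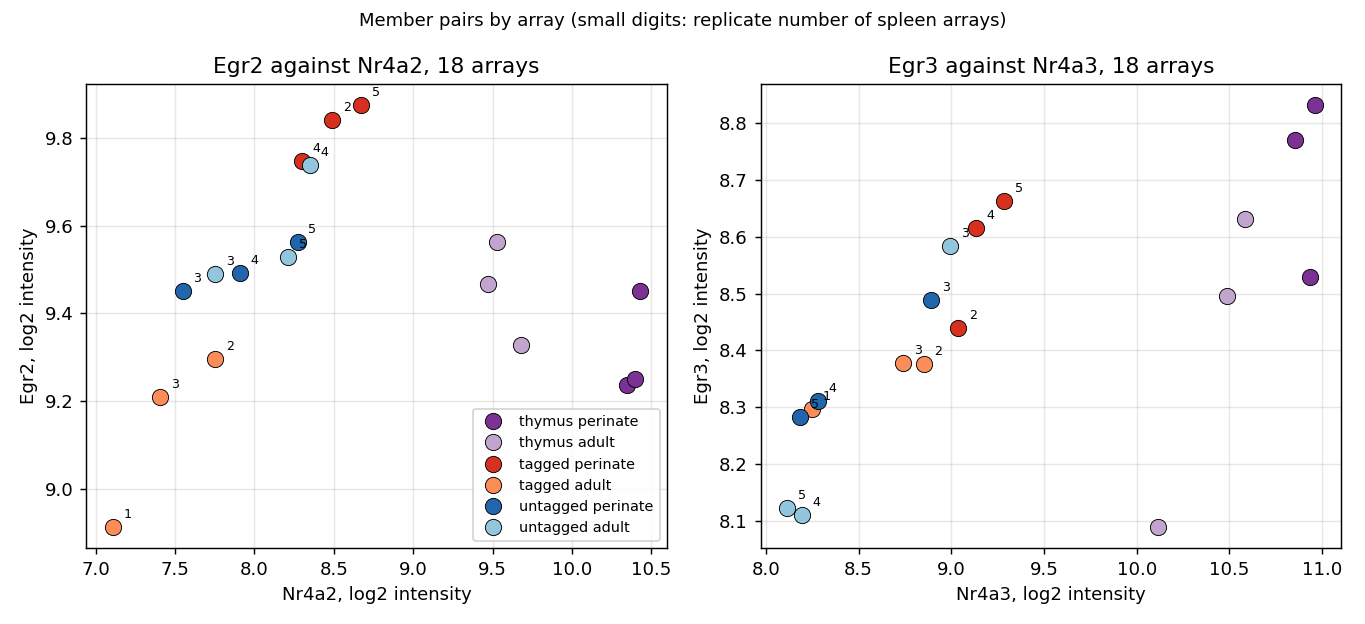
Log2 levels for Nr4a2 against Egr2 and for Nr4a3 against Egr3, 1 point per array, marked by group. Over the 12 spleen arrays alone, the first pair has r = 0.94 and the second r = 0.92. Over the same 12 arrays, Nr4a2 with Nr4a3 has r = 0.20.

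The genes most like each member over all 18 arrays were named by the highest Pearson r. Nr4a1 was nearest to Uap1 (r = 0.98), Tm9sf4 (0.97) and Cd101 (0.97), and r was 0.83 to 0.92 with group means removed. Nr4a2 was nearest to Tnfrsf9 (r = 0.97), Bcat1 (0.96) and Kit (0.96), and with group means removed r was 0.40 to 0.53. Tnfrsf9 encodes the costimulatory receptor 4-1BB and Kit the stem cell factor receptor. Nr4a3 was nearest to Atp6v0a1 (r = 0.98), Smox (0.97) and Lox (0.97), with 0.74 to 0.84 after removal. Egr1 was nearest to Elmod2 (r = 0.90), Egr2 to Cldnd1 (0.89) and Egr3 to Mrps15 (0.94). With group means removed, r was 0.67 for Egr1 with Elmod2, 0.50 for Egr2 with Cldnd1 and 0.89 for Egr3 with Mrps15. The points fall into 6 groups over 2 tissues and both sexes, so these values are descriptions with no test.

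Genes that TCR signals induce had more higher than lower calls in tagged cells by age, in thymus by age and in thymus against untagged spleen, as all genes did. Of 28 such genes tested in tagged spleen cells, 9 were higher and 1 lower in perinate-tagged than in adult-tagged cells, with a median difference of 0.47 against 0.12 for all genes, of which 16% were called higher. Without perinate-tagged replicate 2, 11 were higher and 1 lower, with all 10 of those calls among them. The costimulatory receptor gene Icos was at 11.90 ± 0.08 in perinate-tagged cells and 10.47 ± 0.18 in adult-tagged ones (SD, n = 3 each), a difference of 1.44 ± 0.20 (SE; adjusted p = 0.000223). The ERK phosphatase genes Dusp4 (1.05 ± 0.17, adjusted p = 0.000775) and Dusp5 (0.89 ± 0.16, adjusted p = 0.00114) and the transcription factor gene Nfil3 (1.19 ± 0.24, adjusted p = 0.00355) followed. The 1 lower gene was Il2ra, the IL-2 receptor alpha chain, at -0.39 ± 0.12 (adjusted p = 0.0416). For Icos (1.61 ± 0.29, adjusted p = 0.00361) and Dusp5 (0.89 ± 0.22, adjusted p = 0.0289) the tagged difference also exceeded the untagged one. Against untagged cells of the same arm, 1 of the 28 genes was higher and 0 lower in perinate-tagged cells, where 5.49% of all genes were called higher. The median difference was 0.12 against 0.02 for all genes. Adult-tagged cells had 0 calls against their untagged cells, where 0.271% of all genes were called, and a median of -0.36 against -0.02.

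In thymus, 13 of the same 28 genes were higher and 2 lower in perinate than in adult Tregs, with a median of 0.42 against 0.17 for all genes, of which 18.5% were called higher. Icos was at 10.25 ± 0.04 in perinate thymus and 11.79 ± 0.12 in adult thymus, a difference of -1.54 ± 0.11 (adjusted p = 0.000301), and so ran opposite to its spleen difference (2.98 ± 0.26 apart, adjusted p = 1.02e-06). The amino acid transporter gene Slc7a5 (1.12 ± 0.13, adjusted p = 0.00125), the chemokine gene Xcl1 (1.55 ± 0.22, adjusted p = 0.00309) and the transferrin receptor gene Tfrc (1.09 ± 0.16, adjusted p = 0.00348) were higher in perinate thymus. Between thymus and untagged spleen, 13 were higher and 2 lower, where 16.2% of all genes were called higher, with Xcl1 (2.74 ± 0.14, adjusted p = 5.45e-10), Tnfrsf9 (1.27 ± 0.10, adjusted p = 4.5e-08), the NF-kB subunit gene Rel (0.98 ± 0.08, adjusted p = 1.36e-07) and Dusp5 (1.11 ± 0.12, adjusted p = 1.21e-06) passing with the lowest p.

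Genes linked downstream to the members gave a mixed picture. Of 14 tested genes reported as Egr2 and Egr3 targets in anergic T cells, 2 were higher in perinate-tagged than in adult-tagged cells and 0 lower, with a median of 0.05 against 0.12 for all genes, and 2 of 14 is near the 16% of all genes called higher. These were Tnfsf11, which encodes RANK ligand (0.85 ± 0.17, adjusted p = 0.00278), and the inhibitory receptor gene Lag3 (0.73 ± 0.17, adjusted p = 0.00752). Of 14 tested genes linked to Nr4a factors in T cells, 6 were higher and 1 lower, with a median of 0.45. Without perinate-tagged replicate 2 the Egr target list again had 2 higher and 0 lower, and the Nr4a list 5 higher and 1 lower. The cytokine gene Il4 (1.17 ± 0.14, adjusted p = 4.03e-05), Tox2, a transcription factor gene of exhausted T cells (1.83 ± 0.36, adjusted p = 0.0028), Gata3, the type 2 helper factor gene (0.74 ± 0.17, adjusted p = 0.00904) and Havcr2, which encodes TIM-3 (1.53 ± 0.38, adjusted p = 0.0124), had the lowest p. Against untagged cells of the same arm, 1 of these 14 genes was higher and 0 lower in perinate-tagged cells, with a median of -0.07, where 5.49% of all genes were called higher. Adult-tagged cells had 0 calls against their untagged cells, with a median of -0.49, where 0.271% of all genes were called. In thymus 1 of 13 such genes was higher and 3 lower in perinate Tregs, where 24.3% of all genes were called. Among the lower were Havcr2 (-1.81 ± 0.22, adjusted p = 0.0018) and Tox2 (-0.94 ± 0.17, adjusted p = 0.00742). Bcl2l11, the gene of the death factor BIM, was the higher one (1.15 ± 0.28, adjusted p = 0.0239). Nab1 and Nab2 encode corepressors that bind Egr factors. Nab1 was higher in perinate-tagged cells (0.41 ± 0.12, adjusted p = 0.0255, and 0.39, adjusted p = 0.057, without perinate-tagged replicate 2), and Nab2 was higher in thymus than in untagged spleen (0.85 ± 0.10, adjusted p = 6.05e-06).

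The genes that carry the TCR signal to these promoters showed few calls by age. Of all genes, 19.5% were called between perinate-tagged and adult-tagged cells. Of 28 tested kinases, adaptors, calcineurin subunits and promoter-bound factors, 1 was higher and 1 lower in perinate-tagged cells. These were Ppp3cc, a calcineurin catalytic subunit gene (0.41 ± 0.13, adjusted p = 0.041), and Lat, the adaptor gene (-0.39 ± 0.13, adjusted p = 0.043). The counts were 0 higher and 2 lower without perinate-tagged replicate 2, and Ppp3cc no longer passed (0.32, adjusted p = 0.126). In thymus 0 were higher and 2 lower in perinate Tregs, where 24.3% of all genes were called. The 2 were the adaptor gene Lcp2 (-0.56 ± 0.11, adjusted p = 0.0116) and Ppp3cc (-0.48 ± 0.14, adjusted p = 0.0433). Against untagged spleen, 4 were higher and 8 lower in thymus, where 30.5% of all genes were called and 16.2% called higher. Nfatc1 (-0.67 ± 0.09, adjusted p = 1.59e-05) and the kinase gene Zap70 (-0.78 ± 0.12, adjusted p = 0.000119) were among the lower.

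Other immediate early genes, which cell handling can also induce, were counted in the same way. Of 22 tested, 5 were higher and 0 lower in perinate-tagged than in adult-tagged cells, with or without perinate-tagged replicate 2, where 16% of all genes were called higher. Their median difference was 0.22 against 0.12 for all genes. Fos, a subunit of AP-1, was at 8.46 ± 0.34 in perinate-tagged cells and 7.01 ± 0.18 in adult-tagged ones, a difference of 1.44 ± 0.25 (adjusted p = 0.00121). Klf10 (1.32 ± 0.15, adjusted p = 3.95e-05), Ier3 (1.09 ± 0.15, adjusted p = 0.000193) and Fosb (0.96 ± 0.16, adjusted p = 0.000797) passed as well. The tagged difference exceeded the untagged one for 4 of these 22 genes (Fos, Fosb, Ier3 and Klf10), where 4.29% of all genes were called higher. Without perinate-tagged replicate 2 the same 4 passed (1.01 to 1.62, adjusted p 0.00733 to 0.0213). Of the 28 TCR-induced genes, 2 passed in that comparison with and without that array. In thymus 4 of 23 were higher and 4 lower in perinate Tregs, where 18.5% of all genes were called higher, led by Fos (1.67 ± 0.22, adjusted p = 0.00237) and Fosb (1.23 ± 0.18, adjusted p = 0.00391), with Btg2, an antiproliferative gene, lower (-0.67 ± 0.12, adjusted p = 0.00701). Between thymus and untagged spleen, 4 of 24 were higher and 5 lower, where 30.5% of all genes were called and 16.2% called higher. The 4 with the lowest p were lower in thymus: Zfp36 (-0.98 ± 0.08, adjusted p = 1.25e-07), Klf6 (-0.86 ± 0.10, adjusted p = 5.56e-06), Btg2 (-0.44 ± 0.09, adjusted p = 0.00104) and Rgs1 (-0.67 ± 0.14, adjusted p = 0.00134). The part of handling in the members' differences was not tested.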

How the data were processed

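The values are intensities from Affymetrix arrays, deposited by the authors on a linear scale as 1 table of 24922 probe sets, from 6.81 to 18850. Affymetrix Power Tools and RMA are named in the submitters' processing notes. Versions, the genome build, and which arrays were normalized together are not given in the sources used here. Gene names came from the platform annotation (21425 probe sets with 1 symbol, 1399 with several, 2098 with none), and only probe sets with 1 symbol were used, keeping the one with the highest mean for each of 19752 genes.

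Values were converted to log2 with no pseudocount. A gene was tested if 1 group mean in the fit reached the median of all values (133 linear, 7.05 log2). All 6 members passed. Contrasts were fitted with limma 3.58.1 (lmFit, eBayes; R 4.3.3) over the 12 spleen arrays (10350 genes), the 6 thymus arrays (10650) or all 18 (10889), and p-values were adjusted by Benjamini-Hochberg over all genes of a contrast, with a threshold of 0.05. An exact permutation test of 3 against 3 arrays cannot go below 0.1 and was not used. The code was tested on simulated data. Alternatives were quantile normalization, median centring, no or a stricter filter, mean of probe sets, trended robust prior, array weights, other sets of arrays in the fit, the replicate number as a block, the interquartile range as a covariate, a pseudocount of 16, and leaving out each array.

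The labels do not say what the replicate numbers mean. In the untagged groups, deviations of same-numbered arrays correlated at 0.63 (number 3), 0.14 (number 4) and 0.47 (number 5). Arrays of unlike number there correlated at -0.64 to 0.30, so pairing is not shown for number 4. Deviations from a mean of 3 arrays cancel within a group, so the values for numbers 4 and 5 depend in part on number 3. Pairing for number 5 was not tested apart from it. Same-numbered thymus arrays correlated at -0.05, 0.06 and 0.12.

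All members were named in every contrast. Up to 4 called genes per pathway list, by lowest p, and the 3 genes with the highest r per member were named too. Il2ra, a check gene, some cell markers and a few single counts were named after their values were seen. The members and the lists were chosen with earlier results of these data known. Promoter windows and motif matches came from the RefSeq table on GRCm38.p6.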

Additional observations from a re-analysis of the deposited data

Results flagged for a closer look

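3 results differed between groups under a test of the difference itself. The perinate-minus-adult difference of Nr4a2 was larger in tagged than in untagged spleen cells by 1.26 (log2), and that of Egr2 by 0.77 (0.765 before rounding). The perinate-minus-adult difference of Egr2 was larger in tagged spleen cells than in thymus by 0.82 (0.8215 before rounding). In the spleen comparison each tagged group was sorted from the same treatment arm as its untagged group. In the second, tissue, sex, sorter and age differ together and cannot be told apart.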

How the results depend on the processing

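Of the members' differences recomputed under each alternative, 889 values kept their direction and side of the threshold, 33 lost it, 35 gained it and 20 changed sign. The Nr4a1, Nr4a2 and Nr4a3 rises in thymus over untagged spleen held under every alternative run, as did the Nr4a2 rise in perinate thymus. Where members or genes were lost with fewer arrays, fewer samples were fitted, and the cause of other shifts was not tested. With 3 arrays a group, small differences in the Egr genes were not resolved. Array weights did not converge in 3 contrasts (thymus by age, spleen against thymus difference, thymus against untagged spleen). The stricter filter left out Egr3 in every contrast and Nr4a2 in the 5 spleen contrasts.

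Members called among 6 in perinate-tagged against adult-tagged cells numbered 3, and 6 with array weights, 5 with only the groups compared, 1 with the interquartile range as a covariate and 2 to 3 leaving out 1 array. Genes called there numbered 2020, and 1261 with the stricter filter, 5904 with array weights, 3371 with only the groups compared, 376 with the covariate and 906 to 2052 leaving out 1 array. In untagged cells 0 genes were called, 21 without both arrays numbered 3 (an alternative chosen after seeing the data) and 0 to 5 leaving out 1 array. For the tagged against untagged difference of differences, 2 members were called, 1 with the stricter filter or the covariate, 0 to 2 leaving out 1 array. Its 506 genes became 316 with the stricter filter, 1077 with array weights and 279 to 679 leaving out 1 array.

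For tagged against untagged cells after perinatal tamoxifen, 1 member was called, 0 with no filter or with all 18 arrays, 4 with array weights, 2 with only the groups compared or without both arrays numbered 3, and 0 to 2 leaving out 1 array. Its 760 genes became 3867 with array weights, 1599 without both arrays numbered 3 and 299 to 1001 leaving out 1 array. After adult tamoxifen 0 members were called, 2 without both arrays numbered 3 and 0 to 2 leaving out 1 array. Its 28 genes became 17 with no filter, 10 with the stricter filter, 71 with array weights, 120 with only the groups compared, 99 with all 18 arrays, 0 with the covariate, 16 with the pseudocount, 1450 without both arrays numbered 3 and 0 to 774 leaving out 1 array.

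In thymus 3 members were called and 1 to 3 leaving out 1 array. Its 2589 genes became 1346 with the stricter filter, 1566 with array weights and 707 to 4388 leaving out 1 array. For the spleen against thymus difference, array weights called 3 members in place of 1, and 703 genes became 440 with median centring, 431 with the stricter filter, 5085 with array weights, 1055 with only the groups compared, 1462 with the covariate and 393 to 1069 leaving out 1 array. For thymus against untagged spleen, array weights, the covariate and leaving out both arrays numbered 3 called 5 members in place of 3, leaving out 1 array called 3 to 5, and 3318 genes became 2036 with the stricter filter and 5364 with array weights.

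With the replicate block over the whole fit, the number is not shown to pair the arrays outside the untagged groups, nor those numbered 4 within them. Genes called were 655 for tagged cells by age, 274 for the difference of differences, 11 for adult tamoxifen, 435 for spleen against thymus and 1441 for thymus against untagged spleen. Members called were 2 for tagged cells by age (Egr2 at 0.52, adjusted p = 0.0685), 0 for the difference of differences, 2 for perinatal tamoxifen and 0 for spleen against thymus (Egr2 at 0.73, adjusted p = 0.0519). With the block in the 2 groups alone, 49 genes were called in untagged cells by age, and 4 members and 3188 genes after perinatal tamoxifen. Under the block the spleen against thymus difference of Nr4a2 turned to -0.10 and that of Egr3 to 0.030.

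The other changes of sign were in differences that passed no test. In untagged cells by age, Nr4a2 was 0.033 with array weights, Nr4a3 was -0.067 with quantile normalization and -0.22 with array weights, and leaving out 1 array gave -0.20 to 0.30 for Nr4a3 and -0.14 to 0.0029 for Egr1. Leaving out 1 array gave -0.022 to 0.21 for the Egr3 difference of differences and -0.0027 to 0.23 for Egr3 after adult tamoxifen. In thymus Egr1 was -0.043 with quantile normalization and Egr3 was -0.054 with the covariate. For spleen against thymus, Nr4a3 was -0.013 with median centring, and leaving out 1 array gave -0.16 to 0.16 for Nr4a3 and -0.20 to 0.075 for Egr3.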
